A study of Mus musculus with 18 samples.

Results

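The comparison described here is the interaction of genotype with non-apoptotic cells (NACs) in mouse bone marrow-derived macrophages (BMDMs). It is the HDAC3 KO minus WT difference of each gene with NACs, less the same difference without treatment. It was formed from 12 of the 18 libraries of the series, the 3 libraries of each of the groups labelled WT-NO Treatment, WT-NAC, HDAC3 KO-NO Treatment and HDAC3 KO-NAC. The label WT stands for the floxed control, HDAC3f/f, and HDAC3 KO for M-HDAC3-/-, in which loxP sites flank exon 7 of Hdac3 and Cre recombinase is expressed from the lysozyme 2 locus in cells of the myeloid lineage. Marrow cells of both genotypes were differentiated in L929-conditioned medium. The NACs were K562 cells, a human leukemia line, that had not been exposed to UVB. They were added for 45 min and washed off, and RNA was taken 5 h later, whereas NO Treatment cultures received no cells. The other 6 libraries of the series, with apoptotic cells, did not enter this contrast. The age of the mice is not given in the sources used here.

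HDAC3 is a class I histone deacetylase that works as the catalytic subunit of the NCoR and SMRT corepressor complexes. In macrophages it is recruited by nuclear receptors and other factors, removes acetyl groups from histones at enhancers, and takes part in the control of inflammatory, interferon and lipid genes. NACs serve as the control for engulfment of apoptotic cells: they expose the macrophage to foreign cells that carry few of the eat-me signals of dying cells. In RNA-seq, the yield of a transcript also depends on its base composition, since amplification and fragmentation favour some GC contents over others, and this dependence can differ between libraries. The interaction is therefore given on the counts and again with an offset in each library for the GC content and length of the gene.

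The 12 libraries held between 4704491 and 26421267 counts, and their median total was 15982231.5. The macrophage identity genes summed to between 7418 and 23270 CPM, counts scaled to the same TMM-adjusted total, in each library. Hdac3 did not follow the labels: its level was 3.58, 49.3 and 29.9 CPM in the untreated WT-labelled libraries, 36.1, 10.6 and 68 in the untreated KO-labelled ones, 44.8, 41.3 and 10.4 with NACs in WT-labelled and 5.18, 32.8 and 46.9 with NACs in KO-labelled libraries. Neither genotype label was uniformly the higher in either treatment. The counts cover the whole gene and do not separate the floxed exon, so that they check the labels only in part. The groups are therefore called by their labels throughout. The interaction for Hdac3 was -0.65 on the log2 scale with TMM scaling (SE 1.46, adjusted p = 0.747 in edgeR's quasi-likelihood test), 0.0895 with library totals alone and -1.35 with the offset (adjusted p = 0.544), and it ran from -1.52 to -0.143 with 1 library left out.

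The libraries did not line up by genotype or by treatment alone. On the first principal component, which held 40.6% of the variance, the untreated WT-labelled libraries (-71.3, -61.9 and -33.8) lay with the KO-labelled libraries with NACs (-65.0, -24.6 and -42.2). The untreated KO-labelled libraries (69.0, 56.0 and 70.7) lay on the other side, with replicates 1 and 3 of WT-NAC at 66.2 and 51.2. WT-NAC replicate 2, at -14.3, was apart from the other two of its group. The same split was present in the correlation, over genes, of each library's log2 level with GC content. It was -0.51, -0.57 and -0.40 in untreated WT-labelled and -0.41, -0.28 and -0.30 in KO-labelled libraries with NACs. It was 0.16, 0.57 and 0.58 in untreated KO-labelled libraries and 0.43, -0.16 and 0.38 in WT-labelled ones with NACs. Across the 12 libraries, the first component and the GC correlation had r = 0.955, given as a description of libraries that share these groups. HDAC3 KO-NO Treatment replicate 1 also stood apart, with the smallest total, 10.7% of its counts on lincRNA and antisense genes against 1.20% to 4.11% in the others, and a correlation of 0.863 and 0.888 with its own group. Counts of called genes are given below with and without these 2 libraries. Whether any library carries the label of another group was not tested, and neither Hdac3 nor the positions of the libraries settles it. Exchanged labels would change the sign and the meaning of the values below, which hold for the labels as given.

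**Figure D1:**
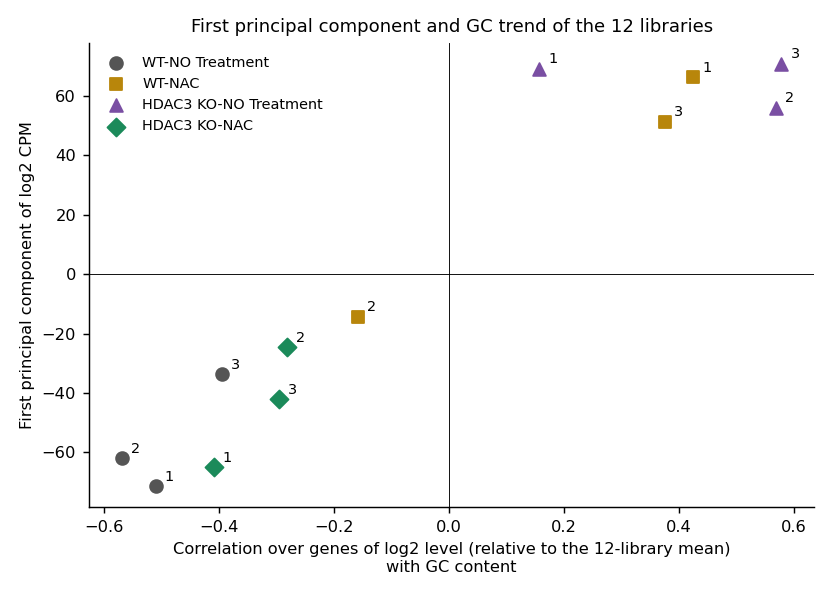
First principal component of log2 CPM (y axis) against the correlation over genes of each library's log2 level, relative to the mean of the 12 libraries, with GC content (x axis). Points are the 12 libraries, coloured by group and numbered by replicate. The 3 WT-NO Treatment and 3 HDAC3 KO-NAC libraries are at the lower left together with WT-NAC replicate 2, and the other 5 libraries are at the upper right.

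A stretch of coding sequence is shown for 6 of the genes described below, because base composition separated the genes that moved one way from those that moved the other. Each stretch is 120 bases in frame, starting about 25% of the way along the coding sequence of the principal GENCODE M21 transcript (GRCm38), with G and C in capitals. Cd86 and Tlr4 had a positive interaction and hold 59 and 45 G or C in the bases shown, with a GC content of 44.6% and 40.3% over their whole coding sequences. Eng and Ckb had a negative interaction and hold 69 and 72, with 57.4% and 59.9%. Kmt2d and Mrpl35 go the other way: Kmt2d had a positive interaction with 73 G or C and 59.4%, and Mrpl35 a negative one with 50 and 47.9%.
Cd86, chr16:36603869-36666081, minus strand, coding bases 202 to 321: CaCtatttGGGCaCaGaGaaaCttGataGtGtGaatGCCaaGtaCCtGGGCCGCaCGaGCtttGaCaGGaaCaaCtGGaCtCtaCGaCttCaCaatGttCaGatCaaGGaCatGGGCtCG
Tlr4, chr4:66827584-66930284, plus strand, coding bases 595 to 714: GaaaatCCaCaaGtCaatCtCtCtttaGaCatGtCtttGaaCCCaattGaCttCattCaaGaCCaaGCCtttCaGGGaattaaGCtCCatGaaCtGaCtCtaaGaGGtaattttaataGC
Eng, chr2:32646595-32682669, plus strand, coding bases 460 to 579: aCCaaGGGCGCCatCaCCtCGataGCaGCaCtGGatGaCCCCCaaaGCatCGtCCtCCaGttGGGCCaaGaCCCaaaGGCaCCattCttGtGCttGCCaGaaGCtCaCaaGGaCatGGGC
Ckb, chr12:111669355-111672338, minus strand, coding bases 256 to 375: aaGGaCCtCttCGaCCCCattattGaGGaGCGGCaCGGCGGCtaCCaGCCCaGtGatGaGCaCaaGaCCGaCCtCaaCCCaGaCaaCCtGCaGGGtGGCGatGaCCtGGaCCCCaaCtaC
Kmt2d, chr15:98831669-98871204, minus strand, coding bases 4162 to 4281: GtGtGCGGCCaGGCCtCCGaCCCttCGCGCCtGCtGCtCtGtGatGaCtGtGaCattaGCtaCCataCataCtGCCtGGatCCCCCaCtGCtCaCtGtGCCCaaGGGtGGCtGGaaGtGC
Mrpl35, chr6:71812997-71826969, minus strand, coding bases 112 to 231: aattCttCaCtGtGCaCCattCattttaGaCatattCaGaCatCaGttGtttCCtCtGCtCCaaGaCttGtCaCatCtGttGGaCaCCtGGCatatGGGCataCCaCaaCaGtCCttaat

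The question of the contrast is which genes differ between the genotype labels in another way once NACs have been added. Of 13005 genes tested, 4530 passed edgeR's quasi-likelihood test for the interaction at an adjusted p under 0.05, which is 34.8%, and 6165 (47.4%) had an unadjusted p under 0.05. The interaction was positive in 2869 of them (22.1%), so that the KO minus WT difference was higher with NACs than without treatment, and negative in 1661 (12.8%). In 4520 of the 4530 the fitted KO minus WT difference had opposite signs in the presence and absence of NACs. Opposite signs were also found, with no test, in 10332 of all genes tested (79.4%), and the count of 4520 is to be read beside that share. In bulk RNA, fewer cells of a type and less RNA per cell cannot be told apart.

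Each side was also tested by itself. Without treatment, 3449 genes (26.5%) differed between the genotype labels, 1355 higher (10.4%) and 2094 lower (16.1%) in KO-labelled libraries. With NACs, 0 genes passed the adjusted test, although 2378 (18.3%) had an unadjusted p under 0.05, and the Wald test of DESeq2 called 67. Hence 0 genes were called in both treatments by edgeR. DESeq2 called 39 genes for the interaction and in both treatments with opposite sign. Other edgeR fits also called genes for the interaction and in both treatments with opposite sign. These were 644 without WT-NAC replicate 2, 50 without HDAC3 KO-NO Treatment replicate 1 and 4 without WT-NO Treatment replicate 1. There were 64 with no filter and 6 with the replicate block. The NAC count rested on single libraries: it was 779 without WT-NAC replicate 2, and 104 without HDAC3 KO-NO Treatment replicate 1. The corresponding interaction counts were 5370 and 6297. Without treatment, the count was 5486 without HDAC3 KO-NO Treatment replicate 1, it was 914 and 1109 without WT-NO Treatment replicate 1 or 2, and 2122 and 1850 without HDAC3 KO-NO Treatment replicate 2 or 3.

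Group by group, the separation had a crossed form. The genotype groups did not overlap in 5106 genes (39.3%) without treatment and in 3498 (26.9%) with NACs. In 1755 genes (13.5%) the genotype groups did not overlap in either treatment and differed in opposite directions. In 1100 genes (8.46%) the 6 libraries of WT-NO Treatment and HDAC3 KO-NAC were all above the 6 of the other groups, and in 285 (2.19%) all below. The 2 sides of this split are also the 2 sides of the GC correlation, apart from WT-NAC replicate 2, so that the contrast and the GC trend of the libraries cannot be told apart by the design.

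With the offset for GC and length, 1214 genes were called for the interaction (9.33%), 624 higher (4.8%) and 590 lower (4.54%), and in 1213 of them the genotype differences had opposite signs, beside 9360 of all genes tested (72%) with no test. A total of 866 genes (6.66%), 532 higher (4.09%) and 334 lower (2.57%), were called in the same direction with and without the offset. Another 3664 genes (28.2%), 2337 higher (18%) and 1327 lower (10.2%), were called only without it, and 348 (2.68%), 92 higher (0.707%) and 256 lower (1.97%), only with it. There were 0 called in both fits with opposite direction. In 162 genes (1.25%) called without the offset its value had the other sign. Without treatment 378 genes (2.91%) differed between the genotype labels under the offset, and with NACs 0, against 1406 (10.8%) at an unadjusted p under 0.05. The untreated count of 378 rested on single libraries. It was 0 without WT-NO Treatment replicate 1, 2 or 3 or HDAC3 KO-NO Treatment replicate 3, 52 without HDAC3 KO-NO Treatment replicate 2, 221, 127 and 128 without HDAC3 KO-NAC replicate 1, 2 or 3, and 1653 without HDAC3 KO-NO Treatment replicate 1. The offset count for the interaction was 263 without HDAC3 KO-NAC replicate 1, 265 without WT-NAC replicate 1 and 405 without WT-NAC replicate 3. It was 391 and 497 without WT-NO Treatment replicate 1 or 2, and 746 and 509 without HDAC3 KO-NAC replicate 2 or 3. It was 1875 without WT-NAC replicate 2 and 2052 without HDAC3 KO-NO Treatment replicate 1.

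**Figure D2:**
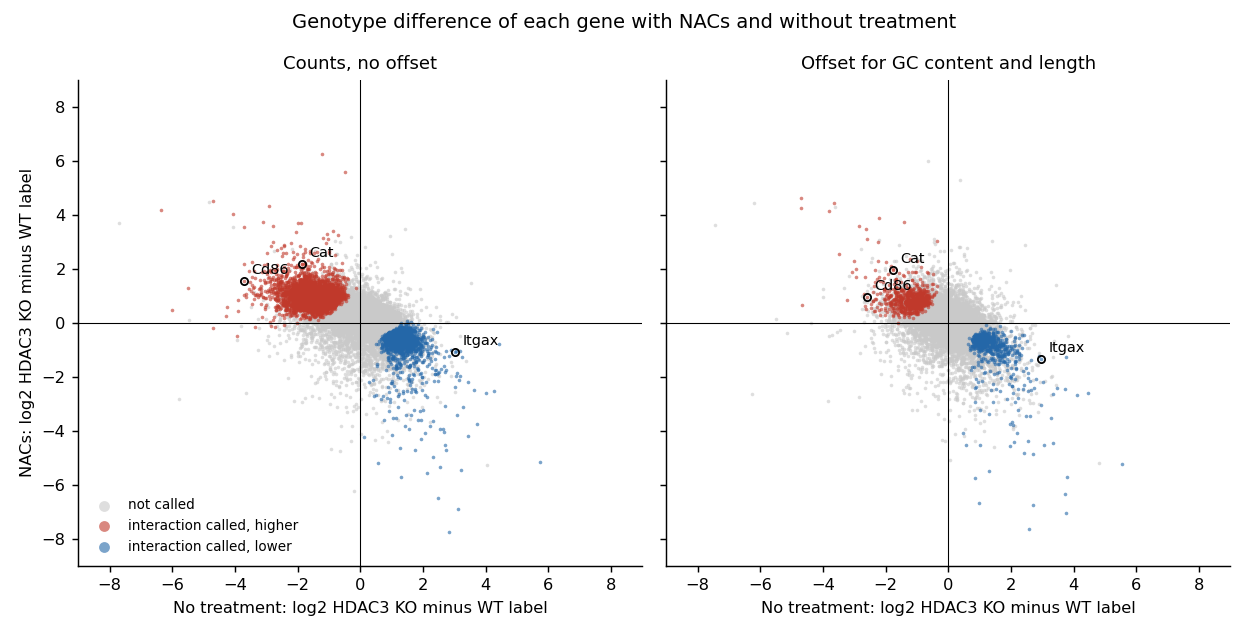
Fitted log2 HDAC3 KO minus WT difference of each gene with NACs (y axis) against the same difference without treatment (x axis), on the counts (left) and with the offset for GC and length (right). Each point is 1 of 13005 genes, red where the interaction was called higher, blue where it was called lower and grey otherwise. Called genes lie mostly in the upper left and lower right quadrants, where the genotype difference changes sign, and fewer points are coloured on the right (1214 against 4530).

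The direction of the calls depended on the scaling. The median interaction of all genes was 0.12 with TMM scaling, -0.27 with the size factors of DESeq2 and 0.70 with library totals alone. Of the calls, 2869 of 4530 were higher with TMM, 2284 of 5010 with size factors and 3601 of 4001 with library totals. Values below are with TMM and are to be read against that median.

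The 10 largest positive interactions among well-measured protein-coding genes whose groups did not overlap in either treatment were in Clec4e, Cd86, Il13ra1, Capza1, Pnpt1, Abcd2, Sgk3, Tlr4, Parp9 and Tlr8, and 774 genes met the same conditions. The conditions also required genotype differences of opposite sign, so the crossed levels given for genes chosen in this way follow from the choice. Clec4e, Tlr4 and Tlr8 are receptors of innate immunity. Clec4e (chr6:123281789-123289870), which encodes the C-type lectin Mincle, was at 394, 156 and 223 CPM in untreated WT-labelled and 34.2, 11.7 and 27.5 in untreated KO-labelled libraries, and at 70.8, 92.8 and 13.1 and 379, 167 and 124 with NACs. It was thus low in every untreated KO-labelled library and high in every KO-labelled library with NACs, with no overlap between the genotype labels in either treatment. The interaction was 5.33 (SE 0.941, adjusted p = 0.00158 by edgeR's quasi-likelihood test) and 3.23 with the offset (SE 0.926, adjusted p = 0.0460).

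Cd86 encodes a costimulatory ligand that macrophages and dendritic cells present to T cells. It was at 396, 193 and 259.7 CPM in untreated WT-labelled libraries and at 26.3, 16.7 and 21.5 in untreated KO-labelled ones. With NACs it was at 65.7, 108 and 22.9 in WT-labelled and 278, 175 and 124 in KO-labelled libraries. The KO label had the lower levels without treatment and the higher levels with NACs, and the closest libraries were 108 and 124 CPM, both with NACs. Without treatment the KO minus WT difference of Cd86 was -3.72 (adjusted p = 0.00230), with NACs 1.55 (adjusted p = 0.161), and the interaction 5.27 (SE 0.684, adjusted p = 0.000636), all by edgeR's quasi-likelihood test. Under the offset the Cd86 interaction was 3.56 (SE 0.602, adjusted p = 0.00777).

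Tlr4, the receptor for bacterial lipopolysaccharide, was less abundant. Its levels were 46.2, 25.0 and 25.3 CPM in untreated WT-labelled, 3.52, 7.40 and 3.67 in untreated KO-labelled, 5.87, 12.2 and 6.45 in WT-labelled libraries with NACs and 44.3, 19.5 and 22 in KO-labelled libraries with NACs. All 6 libraries of WT-NO Treatment and HDAC3 KO-NAC were above the other 6. The Tlr4 interaction was 4.50 (SE 0.650, adjusted p = 0.000636 in the quasi-likelihood test of edgeR) and 2.43 with the offset (adjusted p = 0.0192). Tlr8, an endosomal receptor for single-stranded RNA, had 4.48 (adjusted p = 0.00123) and 2.5 (adjusted p = 0.0464).

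The other 6 serve varied functions. Il13ra1, a chain of the receptor for IL-4 and IL-13, had an interaction of 5.22 (adjusted p = 0.000655, edgeR's quasi-likelihood test) and 3.30 with the offset. Parp9, an interferon-induced member of the ADP-ribosyltransferase family, had 4.49 (adjusted p = 0.000636) and 3.16. Capza1, which encodes an actin filament capping protein, had 4.81 and 3.00, and Pnpt1, a mitochondrial polynucleotide phosphorylase, 4.67 and 2.78. Abcd2, a peroxisomal transporter of very long-chain fatty acyl-CoA, had 4.66 and 2.73, and the kinase gene Sgk3 4.53 and 2.62. All 10 genes passed the adjusted test with the offset as well, each with a smaller value than on the counts. Their GC contents ranged from 40.1% in Sgk3 to 46.6% in Parp9, below the median of 50.3% over all genes tested.

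The 10 most negative interactions under the same conditions were in Itgb7, Pelp1, Tmem132a, Wdr89, Ckb, Sdc1, Eng, Usp36, Scamp2 and Dpep2, among 221 genes. Ckb, the brain-type creatine kinase that buffers ATP, was at 172, 306 and 579.6 CPM in untreated WT-labelled and 1618, 1321 and 598 in untreated KO-labelled libraries. With NACs it was at 1232, 716 and 1355 in WT-labelled and 258, 572 and 456 in KO-labelled libraries. The KO label was thus above the WT label without treatment, by a narrow margin between 580 and 598 CPM, and below it with NACs. The Ckb interaction was -3.10 (SE 0.660, adjusted p = 0.00227 by edgeR's quasi-likelihood test) and -1.72 with the offset (SE 0.487, adjusted p = 0.0386).

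Eng encodes endoglin, a coreceptor for ligands of the TGF-beta family. It was at 9.98, 20.1 and 37.4 CPM in untreated WT-labelled and 57.7, 113 and 95.3 in untreated KO-labelled libraries, and with NACs at 97.4, 46.2 and 81.1 in WT-labelled and 28.6, 36.6 and 44.4 in KO-labelled ones. The genotype labels did not overlap in either treatment, although the margin with NACs, 44.4 against 46.2 CPM, was small. Its interaction was -3.01 (SE 0.620, adjusted p = 0.00183 in the same test) and -1.97 with the offset (adjusted p = 0.0198). Itgb7, the beta 7 integrin chain, had -3.75 (adjusted p = 0.00426) and -2.55 (adjusted p = 0.0367). Sdc1, the heparan sulfate proteoglycan syndecan-1, had -3.02 (adjusted p = 0.00411) and did not pass with the offset, at -1.94 (adjusted p = 0.0581), but passed with that for the principal transcript, at -2.22 (adjusted p = 0.0399).

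Pelp1, a nuclear receptor coregulator that also acts in ribosome assembly, had an interaction of -3.42 and -2.49 with the offset. Usp36, a nucleolar deubiquitinase, had -3.0 and -2.38, and Scamp2, a membrane protein of vesicle traffic, -2.78 and -1.96. Wdr89 went further with the offset, from -3.14 to -4.76. Tmem132a had -3.17 and -1.89, and 33.9% of its exon bases are shared with Slc15a3 on the other strand. Dpep2, a membrane dipeptidase, had -2.70 and -2.73, and 44.0% of its exon bases are shared with other annotated genes. The strand setting of the counting is not given in the sources used here, so reads of such pairs cannot be assigned with certainty. Apart from Sdc1, these genes passed the adjusted test of edgeR with and without the offset.

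**Figure D3:**
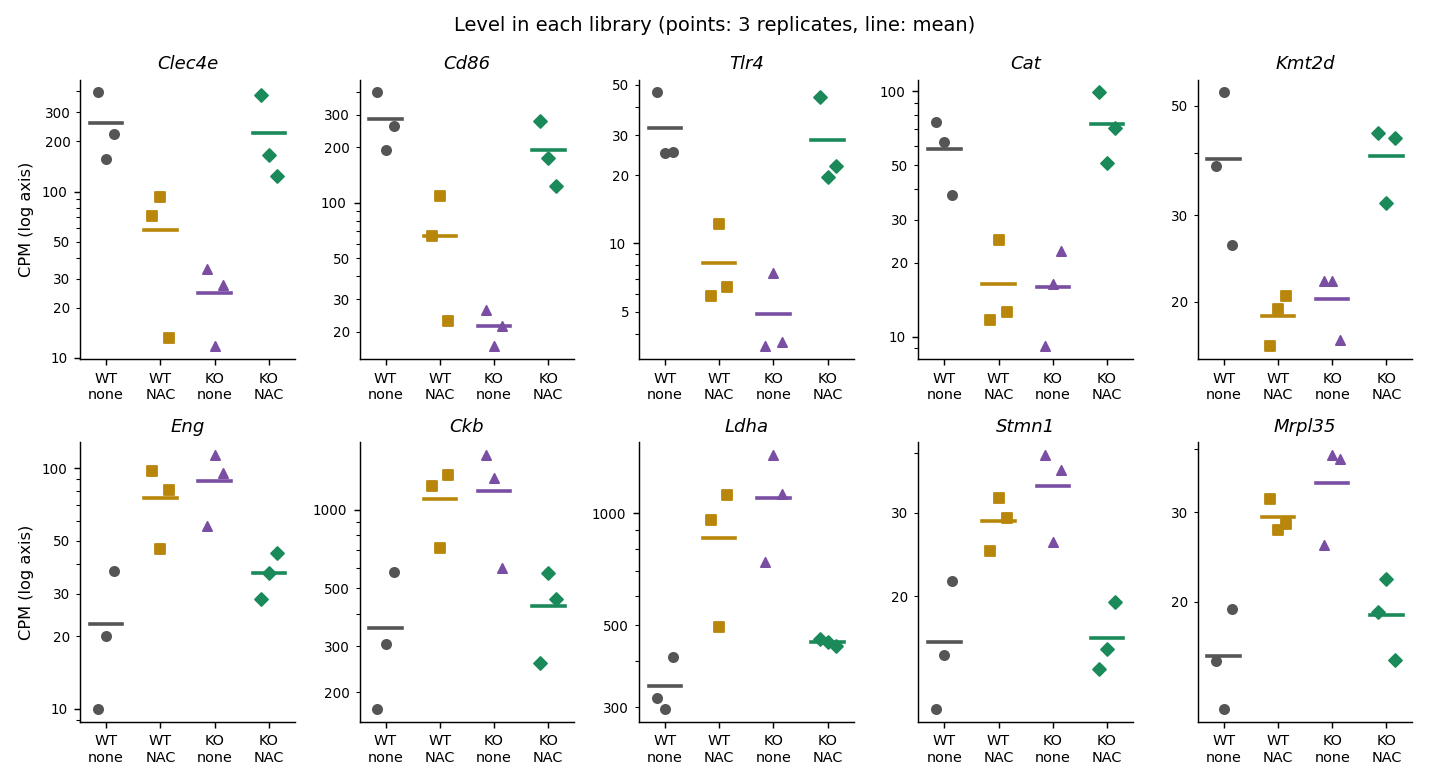
Level of 10 genes in CPM on log axes, by group (WT and KO labels, none for NO Treatment). Points are the 3 libraries of a group and the line is their mean. In the upper row, Clec4e to Kmt2d, WT-NO Treatment and HDAC3 KO-NAC are high and the other 2 groups low, and in the lower row, Eng to Mrpl35, they are low.

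Base composition separated the positive from the negative interactions. Over genes, which are not independent replicates, the interaction had a correlation of -0.607 with GC content and 0.198 with log2 length. The KO minus WT difference had a correlation of 0.639 with GC content without treatment and -0.431 with NACs. Genes were ranked by GC content into 5 classes of equal size. In the class with the lowest GC content, 27.5% to 44.6%, 1376 were called higher and 23 lower, with a median interaction of 2.05. The next classes, from 44.6%, 48.5% and 52.2%, had 1011 higher and 42 lower, 397 and 198, and 67 and 542. In the highest class, 55.8% to 75.5%, 15 were called higher and 856 lower, with a median of -1.32.

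Over all genes called on the counts, the separation was seen in transcripts and not in promoter windows. Genes called higher had a median transcript GC content of 44.8% and genes called lower 55.9%, and at the wobble position of codons the medians were 49.2% and 68.5%. In RefSeq windows around the start site the medians were both 61.0%, beside 60.7% over all tested genes with such a window. Genes called both with and without the offset did differ in these windows, with medians of 62% in those higher and 58.3% in those lower. Their transcript medians were 48.1% and 51.3%. With the offset the correlation over genes was -0.017 with GC content and 0.006 with log2 length. The offset calls were spread over the classes, at 137 higher and 99 lower in the lowest, 143 and 163, 174 and 198, and 110 and 102 in the middle ones, and 57 and 28 in the highest. Whether composition or genotype gave rise to the genes called only without the offset was not tested.

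**Figure D4:**
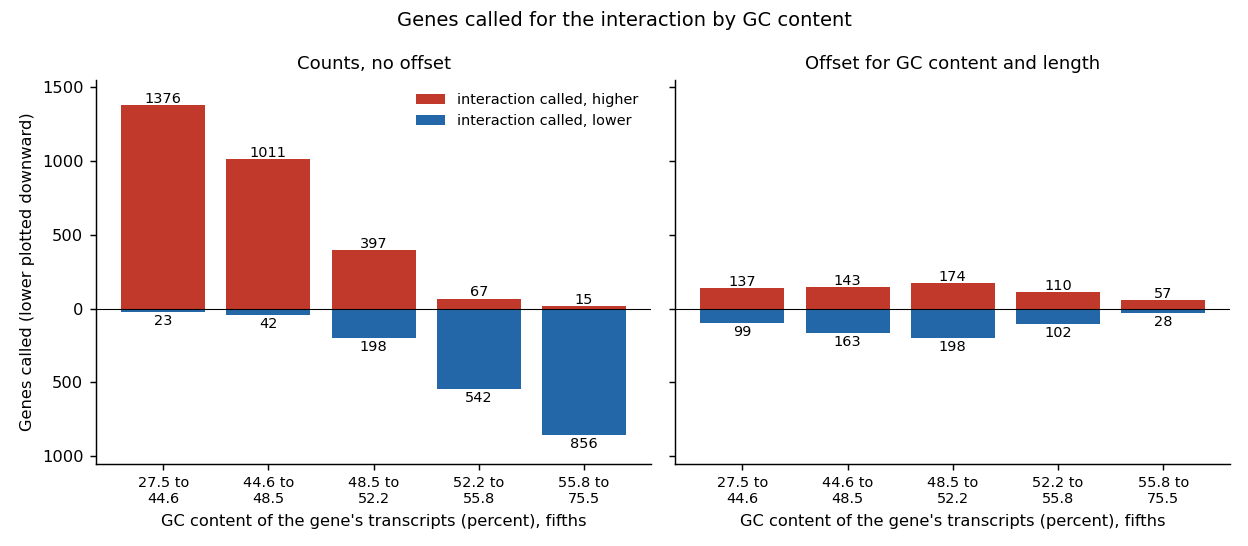
Number of genes called for the interaction in each of 5 classes of equal size by GC content of the gene's transcripts (x axis), higher upward and lower downward (y axis), on the counts (left) and with the offset (right). On the counts, calls go from 1376 higher in the lowest class to 856 lower in the highest, and with the offset both directions appear in each class.

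The genes called both with and without the offset were drawn under the same conditions and ranked by the larger of both adjusted p. Opposite signs and groups without overlap thus follow from the choice. Several of these genes, such as Kmt2d and Mrpl35, run against the GC trend, whereas Cat, at 50.2% GC, is in the middle class. Cat (chr2:103453849-103485160) encodes catalase, which breaks down hydrogen peroxide. It was at 74.8, 62.5 and 38.0 CPM in untreated WT-labelled and 9.15, 16.5 and 22.3 in untreated KO-labelled libraries, and at 11.7, 24.8 and 12.6 and 99.0, 50.9 and 70.7 with NACs. The 6 libraries of WT-NO Treatment and HDAC3 KO-NAC were above the other 6, with a gap from 24.8 to 38.0 CPM. Its interaction was 4.02 (SE 0.608, adjusted p = 0.000647 by edgeR's quasi-likelihood test) and stayed close to that with the offset, at 3.71 (SE 0.489, adjusted p = 0.00544).

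Kmt2d, a histone H3 lysine 4 methyltransferase of enhancers, has a GC content of 58.3%, in the class where most called genes were negative. Its levels were 37.8, 53.2 and 26.1 CPM in untreated WT-labelled and 22.1, 22.1 and 16.8 in untreated KO-labelled libraries. With NACs they were 16.3, 19.3 and 20.5 in WT-labelled and 44.0, 31.7 and 42.9 in KO-labelled libraries. The KO label was lower without treatment and higher with NACs in each library. The Kmt2d interaction was 2.02 (SE 0.507, adjusted p = 0.00566) and grew to 3.18 with the offset (SE 0.484, adjusted p = 0.00666, same test). Without WT-NO Treatment replicate 2 its adjusted p on the counts was 0.0505, and with an offset for length alone the value was 0.813 (adjusted p = 0.17).

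Of the other positive genes of this set, Wdfy3, a scaffold of selective autophagy, had 2.45 on the counts and 2.72 with the offset. Slc45a4, a solute carrier, had 3.65 and 4.27, Mis12, a kinetochore subunit, 3.71 and 2.54, and Stard9, a kinesin, 2.87 and 2.35. Ptma, the small nuclear protein prothymosin alpha, had 2.45 and 2.85, and 1.15 (adjusted p = 0.0457) with the offset for the principal transcript. Rbmxl1, a retrogene copy of an RNA-binding protein gene, had 3.20 and 2.56, and like Ptma it has near-identical copies elsewhere in the genome that can share reads. Parp9 and Cd86 complete the 10, and 243 genes met the conditions.

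The negative genes of this set, drawn from 74, included a metabolic enzyme, a tubulin regulator and a mitochondrial ribosomal protein. Ldha, the A chain of lactate dehydrogenase, was at 318, 297 and 409 CPM in untreated WT-labelled and 738, 1436 and 1127 in untreated KO-labelled libraries, and at 959, 493 and 1118 and 458, 451 and 438 with NACs. The KO label was the higher without treatment and the lower with NACs, and the lowest WT-NAC library, replicate 2, was near the KO-NAC libraries. Its interaction was -2.62 (SE 0.531, adjusted p = 0.00169) and -2.52 with the offset (SE 0.462, adjusted p = 0.00948), both by edgeR's quasi-likelihood test.

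Stmn1 encodes stathmin, which destabilises microtubules and is high in dividing cells. It was at 11.6, 15.0 and 21.6 CPM in untreated WT-labelled and 39.6, 26 and 37.0 in untreated KO-labelled libraries, and at 24.9, 32.3 and 29.2 and 14.1, 15.5 and 19.5 with NACs. No genotype groups overlapped within a treatment, as the choice of this set required. With library totals alone Stmn1 was not called, at -1.34 (adjusted p = 0.0797). The Stmn1 interaction was -1.90 (SE 0.510, adjusted p = 0.00825) and -2.92 with the offset (SE 0.436, adjusted p = 0.00666, same test).

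Mrpl35, a protein of the large mitochondrial ribosomal subunit, is at 44.6% GC, where most called genes were positive. It was at 15.2, 12.3 and 19.3 CPM in untreated WT-labelled and 25.8, 38.9 and 38.2 in untreated KO-labelled libraries, and at 31.8, 27.7 and 28.4 and 19.1, 22.1 and 15.4 with NACs. All 6 libraries of WT-NO Treatment and HDAC3 KO-NAC were below the other 6. Its interaction went from -1.77 (SE 0.495, adjusted p = 0.0102) on the counts to -3.58 with the offset (SE 0.488, adjusted p = 0.00544, quasi-likelihood test of edgeR), and it was not called with library totals alone, at -1.21 (adjusted p = 0.0763).

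Odc1, the rate-limiting enzyme of polyamine synthesis, had -2.0 on the counts and -2.59 with the offset, and was not called with library totals alone, at -1.44 (adjusted p = 0.0702). Marc2, a mitochondrial amidoxime-reducing enzyme, had -2.52 and -2.80, and Phf5a, a subunit of the SF3B splicing complex, -1.98 and -2.81. Tbrg1 had -2.01 and -2.70, with 19.0% of its exon bases shared with Siae. Aph1c, a gamma-secretase subunit with the close paralog Aph1b, had -2.55 and -4.40, and Rps20, a ribosomal protein with processed copies, -1.89 and -3.84. Wdr89 is also in this set. The values of Aph1c and Rps20 are uncertain, since reads of near-identical copies may have been split or dropped in the counting.

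Lists of genes by function, 29 in number, were then described by their counts of called members, beside 22.1% higher and 12.8% lower over all genes tested on the counts, and 4.8% and 4.54% with the offset. A member called with the offset need not be among those called on the counts. Of the 24 tested interferon response genes, 9 were called higher and 3 lower, and the median interaction was 1.65. With the offset 2 were called higher, Ifit2 and Mx2, and 0 lower, with a median of 0.77. Ifit2, which binds viral RNA, had 4.26 (adjusted p = 0.000808 by edgeR's quasi-likelihood test) and 2.30 with the offset (adjusted p = 0.0406), and with that for the principal transcript it did not pass (adjusted p = 0.057). Mx2, of the family of dynamin-like GTPases and annotated in GENCODE as a polymorphic pseudogene, was at 4.36, 3.33 and 3.09 CPM untreated and 1.03, 1.5 and 0.842 with NACs in WT-labelled libraries, against 1.41, 0.907 and 1.77 and 6.73, 2.97 and 6.71 in KO-labelled ones. The untreated WT-labelled and NAC-treated KO-labelled libraries of Mx2 were again the high ones, with an interaction of 3.68 and 3.05 with the offset (adjusted p = 0.0112). Ifih1, the RNA sensor MDA5, had 3.39 on the counts and 1.51 with the offset, where its adjusted p was 0.0759. Ifi27l2a, the most abundant of the list, had 0.11 (adjusted p = 0.923), a value whose sign depended on the scaling, and 0.80 with the offset.

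Among 21 cytokine and chemokine genes 6 were called higher and 0 lower, with a median of 1.44, and with the offset 0 were higher and 1, the interleukin-1 receptor antagonist gene Il1rn, lower, with a median of -0.21. Il1rn was not called on the counts. Cxcl2, a neutrophil chemoattractant, had 3.72 (adjusted p = 0.00210, edgeR's quasi-likelihood test) and 2.23 with the offset (adjusted p = 0.0541). Il1b, the inflammatory cytokine interleukin-1 beta, had 3.97 and 2.65 (adjusted p = 0.0866 with the offset). Its level was low, with a mean of 1.55 CPM over the 12 libraries, and its genotype groups overlapped without treatment. Il10, an anti-inflammatory cytokine, had 3.35 on the counts and 1.66 with the offset (adjusted p = 0.200), and on the counts its adjusted p was 0.0617 without WT-NO Treatment replicate 1. Il10 was likewise low, at a mean of 1.55 CPM, and its genotype groups overlapped with NACs. Of 23 immediate early and NF-kB feedback genes, 3 were called higher and 9 lower (median -0.81), 2 and 10 with size factors but 4 and 2 with library totals, and with the offset 1, Fos, was higher and 0 lower. Fos was not called on the counts. Junb and Jund, subunits of the AP-1 transcription factor, had -2.11 and -2.56 and, with the offset, -0.62 and -1.20. Jund shares 52.6% of its exon bases with an antisense gene model. Tnfaip3, the NF-kB inhibitor A20, had 2.79 and 1.70 with the offset (adjusted p = 0.0665).

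Of 22 scavenger and phagocytic receptor genes, 6 were called higher and 1 lower, with a median of 1.00, and with the offset 0 and 1, with a median of 0.35, the gene called lower in both fits being Stab2. Msr1, scavenger receptor A, had 3.19 (adjusted p = 0.000959 by edgeR's quasi-likelihood test) and 1.19 with the offset (adjusted p = 0.110), and it passed with the offset for the principal transcript, at 1.84 (adjusted p = 0.0195). Mrc1, the mannose receptor, had 2.90 (adjusted p = 0.00134) and 0.80 (adjusted p = 0.254). Itgav, the alpha V integrin chain, had 2.05 on the counts and 0.65 with the offset (adjusted p = 0.324), and on the counts it was not called without WT-NO Treatment replicate 2 or WT-NAC replicate 1, with adjusted p up to 0.0681. Of 18 genes of lipid-associated macrophages, 1 was higher and 4 lower (median -0.51), and with the offset 0 and 1, Itgax. Trem2, a lipid-binding receptor, had -1.66 (adjusted p = 0.0155) and -1.25 with the offset. Lgals3, galectin-3, had -1.65 on the counts and -0.48 with the offset (adjusted p = 0.471), and on the counts its adjusted p was 0.0525 without HDAC3 KO-NAC replicate 1. Itgax, which encodes CD11c, was at 4.36, 6.66 and 9.52 CPM in untreated WT-labelled, 8.45, 129 and 28.6 in untreated KO-labelled, 14.4, 12.7 and 45.5 in WT-labelled libraries with NACs and 11.8, 9.39 and 13.2 in KO-labelled ones. Its groups overlapped in both treatments, HDAC3 KO-NO Treatment replicate 2 was far above the rest, and its interaction was -4.09 (adjusted p = 0.0145) and -4.32 with the offset (adjusted p = 0.0306).

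Lysosomal genes were called in both directions, with 6 of 30 higher and 9 lower (median -0.68), and with the offset 2 were higher and 1 lower. Lamp2, a lysosomal membrane protein, had 3.07 and 1.07 with the offset, and Ctsc, cathepsin C, 3.39 and 1.39. Psap, the precursor of the saposins, had -1.93 on the counts and -1.09 with the offset (adjusted p = 0.231), and on the counts its adjusted p was 0.0528 without HDAC3 KO-NO Treatment replicate 2. Of 23 genes of cholesterol synthesis, 9 were called higher and 3 lower (median 0.61), and with the offset 0 were higher and 2, Ebp and Dhcr7, lower (median 0.12). The enzyme genes Sc5d, Hmgcs1 and Cyp51 of that pathway had 3.36, 3.19 and 2.37 on the counts and 1.62, 1.45 and 1.00 with the offset, where none of these 3 passed. Hmgcs1 shares 12.1% of its exon bases with an antisense model.

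Of 20 targets of the liver X receptors, 2 were called higher and 5 lower (median -0.47), and with the offset 1, Abca1, was higher and 0 lower. Abca1, the transporter that exports cholesterol to lipid-poor apolipoproteins, was at 185, 171 and 103 CPM in untreated WT-labelled and 44.6, 79.1 and 49.0 in untreated KO-labelled libraries, and at 28.5, 62.5 and 57.7 and 242, 91.8 and 154 with NACs. The KO label was thus the lower without treatment and the higher with NACs. Its interaction was 3.12 (SE 0.588, adjusted p = 0.00120) and 1.90 with the offset (SE 0.485, adjusted p = 0.0266) by edgeR's quasi-likelihood test. Srebf1, the transcription factor of fatty acid synthesis, had -1.61 and -0.41 with the offset. Mylip, the ligase that degrades the LDL receptor, had 1.75, and 1.27 with the offset (adjusted p = 0.119), and on the counts was not called in 8 of the 12 fits that left out 1 library, with adjusted p up to 0.108. Apoe, the most abundant of the list, had 1.74 (adjusted p = 0.109) and 3.36 with the offset (adjusted p = 0.0520). On the counts Apoe was called with library totals alone, at 2.18 (adjusted p = 0.0364), and was 0.383 without WT-NO Treatment replicate 1.

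Glycolysis and hypoxia genes were called lower in 7 of 24 and higher in 1, with a median of -1.22. With the offset 2, Ldha and Pfkp, were lower and 0 higher, with a median of -0.78. Of these 2, Ldha alone was also called on the counts. Gpi1, glucose-6-phosphate isomerase, had -2.17 and -1.53 with the offset (adjusted p = 0.0580, edgeR's quasi-likelihood test), and shares 11.5% of its exon bases with another model. Bnip3, a mitochondrial protein induced by hypoxia, was the member called higher, at 3.01 and 1.95, with 22.3% of its exon bases shared. Gapdh, which has many processed copies, had -1.21 (adjusted p = 0.109) and -0.34 with the offset (adjusted p = 0.685). Gapdh was called with an offset for length alone, at -1.56 (adjusted p = 0.0411, same test), and on the counts in 1 of the fits that left out 1 library.

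Of 20 NRF2 and antioxidant genes, 7 were called higher and 2 lower (median 0.41), and with the offset 3, Cat, Txnrd1 and Gsr, were higher and 1, Txn1, lower (median 0.42). Txnrd1, thioredoxin reductase, had 2.84 (adjusted p = 0.00267) and 2.51 with the offset (adjusted p = 0.0131) in edgeR's quasi-likelihood test, and Nfe2l2, which encodes NRF2, 2.62 and 1.03. Of 17 genes of iron handling 4 were higher and 2 lower (median -0.79), and with the offset 0 and 1, Hfe. Hfe was not called on the counts. Slc40a1, the iron exporter ferroportin, had 2.27 and 0.38 with the offset, and Ncoa4, the receptor that takes ferritin to the lysosome, 3.29 and 1.56. Fth1, the ferritin heavy chain, had -1.48 (adjusted p = 0.0545) and -1.26 with the offset (adjusted p = 0.158), and it too has processed copies. On the counts Fth1 was called with size factors (-1.87, adjusted p = 0.0283), the Wald test of DESeq2, limma-voom, either other filter and all 18 libraries, and in 4 of the 12 fits that left out 1 library.

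The nuclear subunits of oxidative phosphorylation were the list with the most members called lower under the offset, 17 of 80 with 1 higher, beside 4.54% and 4.8% over all genes. Only 7 members were called in the same direction with and without the offset, and the values of 25 changed sign with it. On the counts 6 were higher and 18 lower with TMM, 2 and 33 with size factors and 10 and 2 with library totals, and the medians were -0.71 and, with the offset, -0.50. Atp5g1, a copy of the c subunit of ATP synthase, had -2.02 on the counts and -3.14 with the offset (adjusted p = 0.0108 by edgeR's quasi-likelihood test), and Ndufs3, a complex I subunit, -1.82 and -2.06 (adjusted p = 0.0170). With the offset for the principal transcript Ndufs3 did not pass, at -1.22 (adjusted p = 0.0583). Atp5f1 had 2.32 on the counts and 0.38 with the offset (adjusted p = 0.611), but 1.70 (adjusted p = 0.0284) with that for the principal transcript. Cox4i1, the most abundant, had -1.10 (adjusted p = 0.111) and -0.12 with the offset (adjusted p = 0.896). None of the 10 tested mitochondrially encoded subunits was called by edgeR, on the counts (median 1.11) or with the offset (median -0.53), while 5 were called higher with library totals alone and 0 with size factors. The sign of mt-Co1, a subunit of cytochrome c oxidase, turned from 1.23 to -1.0 with the offset.

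Of 84 cytosolic ribosomal protein genes, 12 were called higher and 15 lower (median 0.09), and with the offset 8 and 10 (median 0.13). Rpl5 had 2.85 and 0.99 with the offset, Rplp1 -2.54 and -1.14, and Rps29 -3.09 and -2.68 (adjusted p = 0.0108 with the offset, edgeR's quasi-likelihood test). Processed copies make the values of this family uncertain, and 26.7% of the exon bases of Rpl5 are shared with other genes. Translation and ribosome assembly factors had 6 of 20 higher and 6 lower (median 0.46), and with the offset 1, Eif3h, was higher and 2, Eif3f and Rack1, lower. Eif3h, a subunit of initiation factor 3, had 2.63 and 2.82 with the offset (adjusted p = 0.00910).

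Of 38 proteasome subunits 10 were called higher and 9 lower (median -0.45), and with the offset 1, Psmc1, was higher and 3, Psmd2, Psmd9 and Psmb7, lower. Psmd14, the deubiquitinase of the lid, had 2.45 and 0.48 with the offset, and Psmb10, an immunoproteasome subunit, -2.45 and -1.19. Unfolded protein response genes had 5 of 20 higher and 5 lower (median -0.69), and with the offset 0 were higher and 3, Ddit3, Asns and Edem1, lower. Of these 3, Ddit3 alone was also called on the counts. Ddit3, the stress-induced transcription factor CHOP, had -2.44 and -2.27 (adjusted p = 0.0149 with the offset by edgeR's quasi-likelihood test), with 10.9% of its exon bases shared with other models. Dnajb9, a chaperone of the endoplasmic reticulum, had 2.51 and 0.80.

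The 280 tested Zfp genes, zinc finger proteins that are mostly of low GC content, had 114 called higher and 25 lower, with a median of 1.82. With the offset 21 were higher and 7 lower, with a median of 0.59. Zfp426 was at 12.4, 8.38 and 17.7 CPM in untreated WT-labelled and 0.939, 2.91 and 1.72 in untreated KO-labelled libraries, and at 2.16, 7.51 and 2.81 and 17.1, 9.87 and 10.7 with NACs. The 2 high groups were those of Tlr4 and Cat, though WT-NAC replicate 2 came close to them. Its interaction was 4.29 (adjusted p = 0.000779) and 2.61 with the offset (adjusted p = 0.0179, edgeR's quasi-likelihood test), and Zfp277 and Zfp157 had 4.08 and 4.07 on the counts and 2.15 and 2.05 with the offset.

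Genes of the HDAC3 and NCoR/SMRT complex and its partners had 8 of 21 called higher and 3 lower (median 0.16), and with the offset 3, Zbtb33, Bcl6 and Hdac1, were higher and 0 lower (median 0.02). Zbtb33, which encodes the corepressor-binding factor Kaiso, had 4.07 and 1.99 with the offset (adjusted p = 0.0346 by edgeR's quasi-likelihood test). Bcl6, a repressor that recruits NCoR and SMRT in macrophages, was at 40.4, 43.8 and 25.1 CPM in untreated WT-labelled, 11.0, 21 and 11.3 in untreated KO-labelled, 9.16, 19.8 and 14.5 in WT-labelled libraries with NACs and 45.0, 27.7 and 33.8 in KO-labelled ones. The genotype groups of Bcl6 did not overlap in either treatment, and its interaction was 2.61 (adjusted p = 0.00251) and 2.31 with the offset (adjusted p = 0.0134). Gps2, a subunit of the complex, had -2.53 and -1.49 with the offset, where its adjusted p was 0.0696. Hdac5, a class IIa deacetylase that binds the complex, had -1.92 and -0.72.

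Very long genes of chromatin and transcription had 6 of 24 called higher and 1 lower (median 0.35), and with the offset 4, Kmt2d, Ncoa6, Trrap and Tet3, were higher and 0 lower (median 0.28). Ncoa6, a coactivator of nuclear receptors, had 2.56 and 1.52 with the offset (adjusted p = 0.0282, edgeR's quasi-likelihood test), and Smarca4, the ATPase BRG1 of the SWI/SNF complex, was the member called lower, at -2.69 and -1.98. Nuclear long noncoding transcripts had 4 of 21 higher and 2 lower (median 0.39), and with the offset 1, Neat1, was higher and 2, Snhg8 and Dleu2, lower. Neat1, the scaffold RNA of paraspeckles, had 2.94 and 1.98 (adjusted p = 0.0377 with the offset). Snhg8, a snoRNA host transcript with 15.2% of its exon bases shared with Snora24, had -2.70 and -3.57 (adjusted p = 0.00685), and Malat1 -1.16 (adjusted p = 0.521) and -2.99 (adjusted p = 0.130). HDAC3 KO-NO Treatment replicate 1, in which lincRNA and antisense genes took 10.7% of the counts, enters these values, and its part in them was not tested beyond the fits that left it out. Without that library the value of Malat1 on the counts turned sign, to 0.24.

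Cell cycle genes had 1 of 25 called higher and 5 lower (median -0.44), and with the offset 0 were higher and 2, Top2a and Ccnb1, lower (median -1.11). Neither Top2a nor Ccnb1 was called on the counts. Plk1, a mitotic kinase, had -3.19 (adjusted p = 0.00436 by edgeR's quasi-likelihood test) and -2.17 with the offset (adjusted p = 0.0613). Pcna, the DNA polymerase clamp, was the member called higher, at 1.96. With the offset Pcna had 0.11 (adjusted p = 0.876), and on the counts it was not called without WT-NAC replicate 1 or 3, with adjusted p up to 0.0522. Clustered histone genes had 1 of 44 higher and 2 lower (median -1.30), and with the offset 0 and 4. Of those 4, 1 was also called on the counts. Complement genes had 3 of 18 higher and 3 lower (median -0.40), and with the offset 0 and 1, Itgax. MHC class II and costimulation genes had 2 of 14 higher and 2 lower (median -1.0), and with the offset 1 and 1, Cd86 being the one called higher in both fits. Of 9 small nucleolar and Cajal body RNAs 1, Snord89, was higher and 1, Snord17, lower, and with the offset Snord89 alone was called. Of 4 tested developmental transcription factors 0 were higher and 1, Twist1, lower in each fit.

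The lists that kept the sign of their median under all 3 scalings were, among others, the interferon response (1.65, 1.28 and 2.16 with TMM, size factors and library totals), the cytokines (1.44, 1.01 and 1.99), the scavenger receptors (1.00, 0.61 and 1.56), the Zfp genes (1.82, 1.41 and 2.42), glycolysis (-1.22, -1.60 and -0.64) and nuclear oxidative phosphorylation (-0.71, -1.08 and -0.15). The sign turned with 1 of the scalings in the LXR targets (0.17 with library totals), the study's efferocytosis list (0.07), the lipid-associated macrophage genes (0.08), macrophage identity (0.20), complement (0.19), the cell cycle (0.13) and the proteasome (0.09). It turned with size factors in the HDAC3 complex (-0.27), the chromatin genes (-0.07), the nuclear noncoding transcripts (-0.01) and the ribosomal proteins (-0.31). Counts of calls moved with the scaling as well. With library totals, 3 LXR targets were called higher and 0 lower, against 2 and 5 with TMM, 3 and 1 lipid-associated macrophage genes, against 1 and 4, and 2 and 1 cell cycle genes, against 1 and 5. The 2 called B cell markers and the 2 called fibroblast markers were not called with library totals. With size factors, 3 scavenger receptor genes were called higher and 3 lower, against 6 and 1. The ribosomal protein genes had 8 higher and 22 lower with size factors and 24 and 9 with library totals, the translation factors 3 and 6 and then 9 and 2, and the proteasome 9 and 11 and then 14 and 2. In the same order the unfolded protein response had 4 and 9 and then 5 and 2, the lysosomal genes 5 and 10 and then 6 and 5, iron handling 3 and 5 and then 4 and 1, complement 1 and 4 and then 3 and 1, macrophage identity 2 and 4 and then 3 and 2, and the clustered histones 1 and 6 and then 2 and 0. In lists with mostly higher calls under TMM, the Zfp genes had 100 and 35 and then 134 and 3, cholesterol synthesis 9 and 6 and then 10 and 0, the HDAC3 complex 8 and 6 and then 8 and 1, the interferon response 8 and 3 and then 11 and 2, the cytokines 5 and 1 and then 8 and 0, NRF2 genes 6 and 3 and then 7 and 1, the chromatin genes 4 and 3 and then 7 and 1, and the nuclear noncoding transcripts 3 and 2 and then 6 and 1. Glycolysis had 1 and 9 and then 2 and 5, and MHC class II genes 2 and 3 and then 2 and 1.

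Some single genes also changed with the setting. With library totals alone Cd79b (-2.09), Hdac5 (-1.26), Lgals3 (-1.04), Ltf (-1.16), Ndufs3 (-1.24), Psap (-1.36), Srebf1 (-0.997) and Trem2 (-1.05) were not called, and with an offset for length alone neither Itgav (1.05) nor Slc40a1 (1.30) was. That offset also lowered Ncoa6 to 1.61, Neat1 to 1.80, Stard9 to 1.60 and Wdfy3 to 1.32, all still called. Itgax was not called by limma-voom, at -3.25 (adjusted p = 0.051), nor Mylip with size factors (1.34) or with no filter (1.54). Compared with the offset for the gene's transcripts, that for the principal transcript added calls for Gpi1 (-1.70), Psmb10 (-1.38), Rplp1 (-1.21), Tnfaip3 (2.05) and Ltf (-2.10), and moved Ddit3 to -1.51. Of genes not called on the counts, Cox4i1 was called with size factors (-1.50), Gapdh with the Wald test of DESeq2 (-1.58) and mt-Co1 with library totals (1.79), and mt-Co1 was 0.513 without HDAC3 KO-NO Treatment replicate 1.

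**Figure D5:**
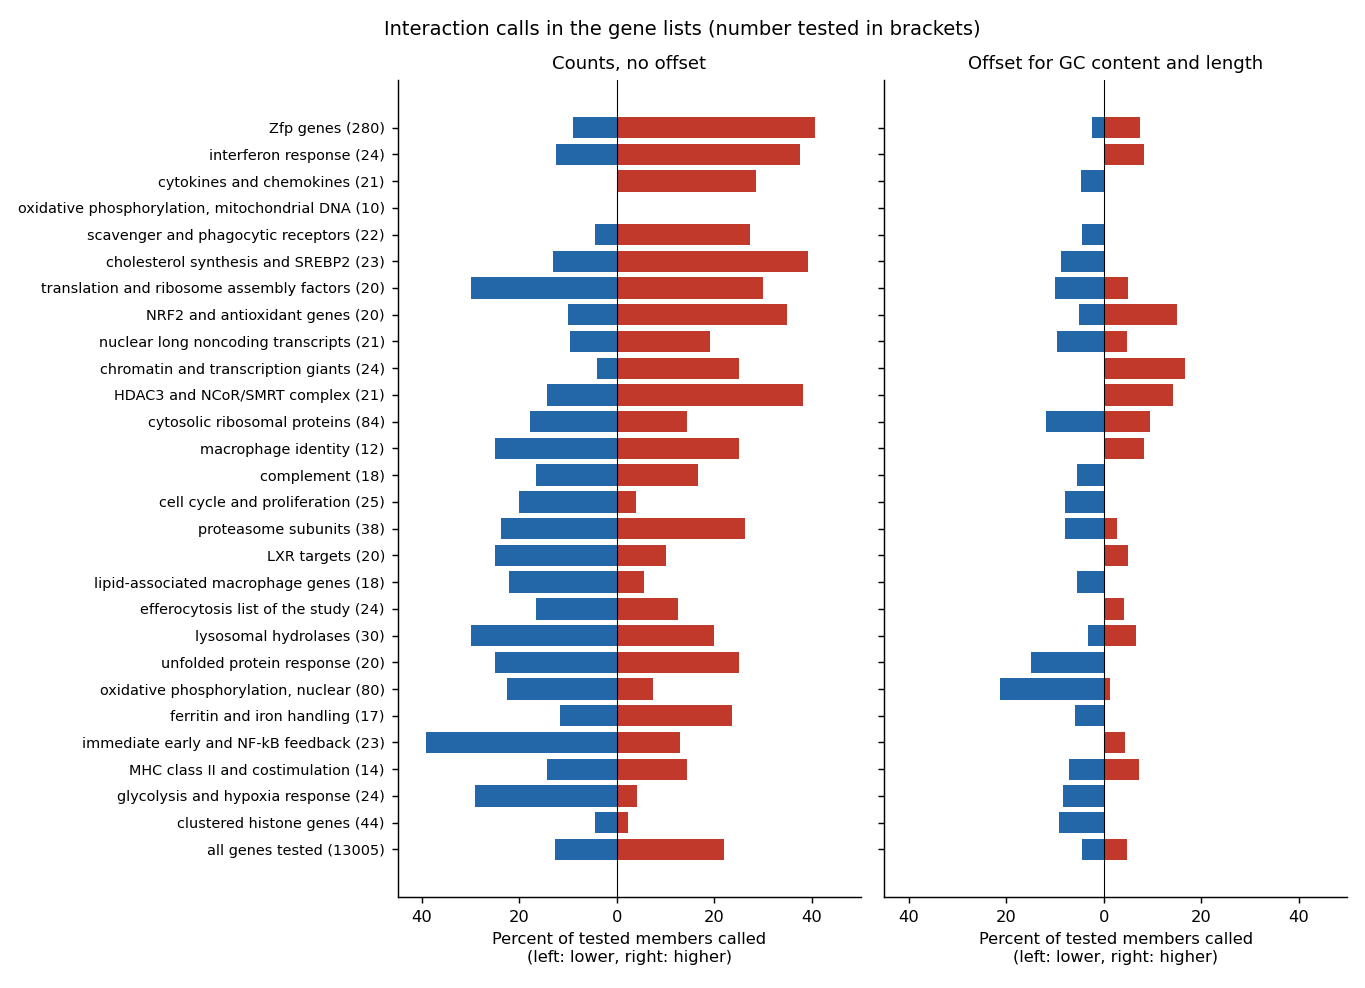
Percent of the tested members of each list called for the interaction, lower to the left and higher to the right (x axis), on the counts (left) and with the offset for GC and length (right). The number tested stands in brackets, lists are ordered by their median interaction, and all genes tested are at the bottom. Only lists with at least 10 tested members are plotted, markers of other cell types left out. Among those plotted, Zfp genes reach furthest to the right on the counts, and nuclear oxidative phosphorylation reaches furthest to the left with the offset.

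Of the 24 tested genes of its efferocytosis list, which were chosen on libraries of this series, 3 were called higher and 4 lower (29.2%, beside 34.8% of all genes; median -0.54). With size factors 1 was called higher and 5 lower, and with library totals 6 and 1. With the offset 1, Lrp1, was higher and 0 lower (median -0.14). On the counts the higher ones were Cd36, Itgav and Lrp1 and the lower ones Lgals3, Mfge8, Tgm2 and Trem2. Cd5l, a secreted scavenger protein of macrophages, was at 15.3, 211 and 139.5 CPM in untreated WT-labelled and 146, 197 and 324 in untreated KO-labelled libraries, and at 257, 159 and 98.8 and 43.4, 138 and 184 with NACs. The groups overlapped in both treatments, and WT-NO Treatment replicate 1 was far below its group. The Cd5l interaction was -1.36 (SE 1.06, adjusted p = 0.328 by edgeR's quasi-likelihood test) and -1.20 with the offset (adjusted p = 0.457). It was -0.576 with library totals, -2.03 with the replicate block, -2.08 with limma-voom and -2.21 without WT-NO Treatment replicate 2, and was called in none of these.

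Cd36, the class B scavenger receptor that binds lipids and CD5L, was at 290.0, 258 and 269 CPM in untreated WT-labelled, 72.3, 274 and 51.6 in untreated KO-labelled, 55.1, 213 and 168 in WT-labelled libraries with NACs and 472, 217 and 257 in KO-labelled ones. Its groups overlapped without treatment and were close with NACs, at 213 and 217 CPM. The Cd36 interaction was 2.15 (SE 0.800, adjusted p = 0.0459), it was not called in 10 of the 12 fits that left out 1 library, with adjusted p up to 0.188, nor with size factors, at 1.73 (adjusted p = 0.0998), and with the offset it was 0.36 (adjusted p = 0.786), all in edgeR's quasi-likelihood test.

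Lrp1, a large endocytic receptor, was at 246, 415 and 179 CPM in untreated WT-labelled and 131, 255 and 194 in untreated KO-labelled libraries, and at 104, 138 and 200.4 and 343, 196 and 286 with NACs. Its groups overlapped in both treatments. The Lrp1 interaction was 1.43 (SE 0.553, adjusted p = 0.0486) and was not called in 11 of the 12 fits that left out 1 library, with adjusted p up to 0.347 and a value of 0.74 without WT-NO Treatment replicate 2. It was not called with size factors, at 0.995, or with an offset for length alone, at 0.135 (adjusted p = 0.866). With the offset it was 2.46 (SE 0.562, adjusted p = 0.0177 by edgeR's quasi-likelihood test).

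The receptor kinase genes Axl and Mertk had -1.16 (adjusted p = 0.396) and 0.43 (adjusted p = 0.646), and their ligand gene Gas6 -0.57 (adjusted p = 0.554). Nr1h3, which encodes LXR alpha, had -0.61 (adjusted p = 0.397, edgeR's quasi-likelihood test for all 4). The values of Mertk, Gas6 and Nr1h3 turned sign with the offset, to -0.72, 0.60 and 0.35, and Axl had -0.32. On the counts Axl was -0.0689 without HDAC3 KO-NO Treatment replicate 3 and -1.92 without replicate 1 of that group, and Nr1h3 ran from -1.17 to -0.373 with 1 library left out. Their SEs on the counts were 1.04 in Axl, 0.696 in Mertk, 0.734 in Gas6 and 0.560 in Nr1h3. With all 12 libraries none of the 4 passed, on the counts or with the offset. With 1 library left out Mertk ran from -0.18 to 1.34 on the counts. It was called in 1 of those fits (lowest adjusted p = 0.0236, edgeR's quasi-likelihood test).

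Lyz2, whose locus drives the Cre recombinase, was at 14629, 7474 and 4244 CPM in untreated WT-labelled and 1379, 2391 and 2816 in untreated KO-labelled libraries. With NACs it was at 3380, 5991 and 1703 in WT-labelled and 14295, 4933 and 9698 in KO-labelled libraries. It was low in all untreated KO-labelled libraries, and with NACs the groups overlapped. The Lyz2 interaction was 3.38 (SE 0.743, adjusted p = 0.00285) and 2.63 with the offset (SE 0.685, adjusted p = 0.0291) by edgeR's quasi-likelihood test. Of the 12 macrophage identity genes, 3 were called higher and 3 lower (median -0.37), and with the offset 1 and 0, Lyz2 being that one. Mrc1 was among those higher, and Cebpa, a transcription factor of the myeloid lineage, was lower, at -2.59 and -1.21 with the offset.

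In the sets of markers of other cell types 0 genes were called higher, and those called were lower, beside 22.1% higher and 12.8% lower over all genes tested. Granulocyte markers summed to 279 to 1252 CPM in WT-NO Treatment, 481 to 1035 in HDAC3 KO-NO Treatment, 569 to 1124 in WT-NAC and 377 to 955 in HDAC3 KO-NAC libraries, ranges that overlap. Of 12 tested, 0 were higher and 1 lower in each fit, Ltf on the counts and Retnlg with the offset. Ltf, lactoferrin, had -1.85 (adjusted p = 0.0267, edgeR's quasi-likelihood test) and was not called without HDAC3 KO-NO Treatment replicate 2 or HDAC3 KO-NAC replicate 1, with adjusted p up to 0.0786. Fibroblast markers summed to 73.3 to 112 CPM in HDAC3 KO-NO Treatment and 9.95 to 53.2 in HDAC3 KO-NAC libraries, and to 6.18 to 120 and 30.6 to 49.5 in WT-NO Treatment and WT-NAC libraries. Of 9 fibroblast markers 0 were higher and 2, Pdgfrb and Thy1, lower, and with the offset 0 were called. T and NK cell markers summed to at most 101 CPM, in HDAC3 KO-NO Treatment, and 0 of 4 were called. Of 5 B cell markers 0 were higher and 2, Cd79a and Cd79b, lower (40%), and with the offset 0, while their sums overlapped between all groups, from 9.17 to 33.3 CPM. Cd79b, a chain of the B cell receptor, had -2.65 on the counts and -2.01 with the offset. Of 6 erythroid genes 0 were called, and the embryonic globin gene Hbb-y was at 0 in every library, although mouse gene counts need not register RNA of human K562 cells. Dendritic cell markers summed to 403 to 439 CPM in WT-NO Treatment and 578 to 990 in HDAC3 KO-NO Treatment libraries, which did not overlap, and to 513 to 647 in WT-NAC and 496 to 600 in HDAC3 KO-NAC libraries, which did. Nearly all of this sum was Irf8, a transcription factor gene that macrophages also express, at 401 to 989 CPM. Of the 2 tested 0 were called, and 1 was called lower with size factors. Of 5 adipocyte, endothelial or neural markers 0 were higher and 1, Tubb3, lower, with 0 called with the offset and 2 called higher with library totals. The part of these cells in the interaction was not tested.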

How the data were processed

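RNA of mouse BMDMs was sequenced by the authors as paired reads of 150 bases after library preparation with a NEBNext Ultra II kit. Per the submitters' processing notes, Trimmomatic 0.36, STAR 2.5.2b and featureCounts of Subread 1.5.2 were used with the mouse genome GRCm38. The strand setting is not given in the sources used here. The deposited values are whole, unnormalised counts per Ensembl gene, identical in gene order across the 18 libraries, of which 12 were used.

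The 12 libraries were fitted together in R 4.3.3 with edgeR 4.0.16, with 1 mean per group (filterByExpr with a minimum count of 10 and total of 15, TMM, robust glmQLFit, glmQLFTest, Benjamini-Hochberg, threshold 0.05). "Called" means an adjusted p under 0.05 in that fit, fold changes are log2, and CPM are counts scaled to the same TMM-adjusted total in every library. Standard errors were taken from the log2 value and the F statistic. The offset was a smooth of each library's log2 CPM (prior count 2) on GC content and log2 length of the gene's GENCODE M21 transcripts (mgcv 1.9.3). Of 49315 gene identifiers, 49056 matched that annotation and 44858 had the same start and end. Genes without a GC content were given the median.

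The members and lists were chosen with earlier results of these data known. Named were (a) the 10 largest positive and negative interactions among called protein-coding genes with a mean of at least 10 CPM, genotype differences of opposite sign and groups that do not overlap in either treatment, (b) the 10 of smallest p each way among those also called with the offset, (c) up to 4 members of each of 36 lists, the 3 of smallest p and the most abundant, and (d) genes of the study, Hdac3 and Lyz2. Members given only by name, where 5 or fewer were called, were named after their values were seen. No list was trimmed, and some members that (c) allows are not reported here.

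Alternatives were the size factors and the Wald test of DESeq2 1.42.0, library totals, limma-voom (limma 3.58.1), 2 filters, all 18 libraries, a replicate block, offsets for GC content or length alone, for both with the block, and for the principal transcript (added after seeing the data), and each library left out. Leaving out each library under the offset for GC and length was likewise not planned in advance. The fits were tested on simulated data. Pairs of libraries within a group had a chi-squared per degree of freedom of 53.9 to 306, far above that of copies. Pairs across groups were not compared in this way. With 3 animals per genotype, it is not given whether the treatments of 1 number share an animal.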

Additional observations from a re-analysis of the deposited data

Results flagged for a closer look

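Counts for 2 fits and 52 genes were put forward because the genotype difference under NACs and the one without treatment differed by a test of that difference itself. The counts are the 4530 genes called on the counts and the 1214 called with the offset for GC and length. The genes are those named in the text that were called on the counts, with the offset, with the offset for the principal transcript and, on the counts only, with each library left out in turn. Of these genes, 29 were higher and 23 lower. Over all genes tested, 731 were called in the same direction in the first 3 of these fits, 454 higher and 277 lower. With the offset, leaving out a library was followed for the counts of called genes and not for single genes. The values below are log2 interactions on the counts.

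Among receptors and other genes of the immune response, Clec4e had 5.33, Cd86 5.27, Il13ra1 5.22, Tlr4 4.50, Parp9 4.49, Tlr8 4.48, Mx2 3.68 and Lyz2 3.38. Itgb7 had -3.75, Itgax -4.09, Eng -3.01 and the dipeptidase gene Dpep2 -2.70.

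Of regulators of transcription and chromatin, Zfp426 had 4.29, Zfp277 4.08, Zfp157 4.07, Zbtb33 4.07, Neat1 2.94, Bcl6 2.61, Ncoa6 2.56 and Ptma 2.45. Negative values in this group were those of Pelp1 at -3.42 and of the stress-induced factor gene Ddit3 at -2.44. RNA processing and translation held both signs, with Pnpt1 at 4.67, Rbmxl1 at 3.20 and Eif3h at 2.63, and with Rps29 at -3.09, Snhg8 at -2.70, Phf5a at -1.98, Rps20 at -1.89 and Mrpl35 at -1.77.

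Among enzymes and transporters, Abcd2 had 4.66, Sgk3 4.53, Cat 4.02, Slc45a4 3.65, Abca1 3.12 and Txnrd1 2.84. Ckb had -3.10, Ldha -2.62, Marc2 -2.52, Atp5g1 -2.02, Odc1 -2.0, Usp36 -3.0 and Aph1c -2.55.

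The cytoskeleton, membrane traffic and cell division were represented by Capza1 at 4.81, Mis12 at 3.71, Stard9 at 2.87 and Wdfy3 at 2.45, and by Scamp2 at -2.78 and Stmn1 at -1.90. The remaining genes were Tmem132a at -3.17, Wdr89 at -3.14 and Tbrg1 at -2.01.

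For each of these genes the KO minus WT difference with NACs did not pass the adjusted test by itself in edgeR, where 0 of all genes passed, 2378 had an unadjusted p under 0.05 and DESeq2 called 67. The test of the interaction is therefore what places them here. Some lost the call in other fits: Mrpl35 (-1.21), Odc1 (-1.44) and Stmn1 (-1.34) with library totals alone, Itgax (-3.25) with limma-voom, Tlr8 (2.45) and Usp36 (-2.19) with the offset for GC content alone, and these 2, Ckb, Lyz2, Zbtb33 and Zfp157 with the replicate block and the offset for GC and length together.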

How the results depend on the processing

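Of the 97 genes given with values and called on the counts, 0 turned sign with any library left out, and 10 lost the call with at least 1 library left out. Many of these 97 were chosen for a small p or for groups without overlap, which favours calls that hold. Of all 4530 genes called, 2952 were still called without WT-NO Treatment replicate 2, the fewest, and 4421 without WT-NAC replicate 2, the most. The number was 2982 without WT-NAC replicate 1 and 3022 without HDAC3 KO-NAC replicate 1. With the offset for GC and length, the genes called for the interaction fell to 1214 from 4530 (993 for GC content alone, 1308 for the principal transcript), and those of opposite sign to 1213, 993 and 1308. The cause was not tested. The genotype difference without treatment then had 378, 252 and 477 genes. With an offset for length alone, 4869 genes were called for the interaction, 2234 higher and 2635 lower, and 3767 without treatment. With NACs, where TMM and edgeR called 0, the Wald test of DESeq2 called 67 and the fit with no filter 127.

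Leaving out 1 library moved the interaction count between 3043 and 6297, that of opposite signs between 3039 and 6059, the NAC count between 0 and 779, the untreated count between 914 and 5486, and the interaction count with the offset between 263 and 2052. The lowest interaction count came without WT-NO Treatment replicate 2, the lowest untreated count without WT-NO Treatment replicate 1 and the lowest with the offset without HDAC3 KO-NAC replicate 1. The highest came without HDAC3 KO-NO Treatment replicate 1, and for NACs without WT-NAC replicate 2.

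With size factors 5010 genes were called, 3945 of them shared with the 4530, with library totals 4001, with limma-voom 5052, with the Wald test of DESeq2 5639, with all 18 libraries 4733 and, where a gene needed 10 counts in each library, 4138.

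Replicate numbers did not pair the libraries: over 18 same-numbered pairs the correlation of deviations was -0.236 to 0.522, with 2 over 0.1, and over 36 other pairs -0.319 to 0.345, and 2 of 12 libraries correlated best with their own number. With the replicate block, 4280 genes were called for the interaction and 6 with NACs. With the block and the offset for GC and length together, 828 were called for the interaction, 828 of opposite sign, 220 without treatment and 1 with NACs.

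Of the genes given with values, none whose sign turned was called on the counts by edgeR with TMM and all 12 libraries. Ifi27l2a had -0.253 with size factors and with the Wald test, -0.183 with limma-voom, -0.0395 with no filter, -0.168 with all 18 libraries, -0.0776 with the block, and -0.859 to 0.442 with 1 library left out. Hdac3 had 0.0895 and Gas6 0.0607 with library totals, and Malat1 0.0784 with limma-voom. Under the 4 offsets with GC content (GC content and length, GC content alone, with the block, principal transcript), mt-Co1 had -1.0, -1.09, -0.912 and -0.966, Nr1h3 0.346, 0.339, 0.264 and 0.399, Gas6 0.603, 0.554, 0.653 and 0.588, and Mertk -0.719, -0.61, -0.534 and -0.744. Mertk had -0.0576 with the offset for length, and Cox4i1 0.253 with that for the principal transcript. Among fits without 1 library, Gas6 ran from -1.24 to 0.332, Malat1 from -1.92 to 0.24 and Mertk from -0.18 to 1.34. Mertk was called in 1 of these fits.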
